A study of Mus musculus with 14 samples.

Results

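The comparison of Krt9 null with wild-type (WT) mouse paws on postnatal day 3 (P3) used 8 of the 14 libraries of the series, taken by the day and genotype in their column names. Each library was made from total RNA of whole paws after ribosomal RNA depletion, and reads were counted per gene. The 3 null libraries came from mice labelled Krt9-/-: a male of litter 3 (replicate 1), a female of litter 5 (replicate 2) and a female of litter 9 (replicate 3). The 5 WT libraries came from a male of litter 1 (replicate 1), the males of litter 2 (replicates 2 and 3) and females of litters 7 and 8 (replicates 4 and 5). The type of Krt9 allele, the strain and any pooling of animals are not given in the labels. No P3 litter held both genotypes, so genotype and litter cannot be told apart, and p-values measure the spread between these libraries. The 6 libraries of the day of birth (P0, 2 null and 4 WT) entered the fit to estimate that spread.

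Krt9 is a type I keratin of the suprabasal keratinocytes of palms and soles, where it pairs with the type II keratin Krt1, and mutations of its human counterpart cause a palmoplantar keratoderma. Keratinocytes that leave the basal layer replace Krt5 and Krt14 with Krt1 and Krt10. They then crosslink loricrin and other proteins into a cornified envelope beneath the membrane and secrete barrier lipids from lamellar bodies. A whole paw holds this epidermis together with dermis, vessels, muscle, cartilage and bone.

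The P3 libraries held 28947715 to 40527112 counts and 25119 to 27019 genes with a count. The table's columns form 2 alphabetical runs, which the labels do not call a batch. The first run holds null replicate 2 and WT replicates 2, 3 and 4, and the second holds null replicates 1 and 3 and WT replicates 1 and 5. As a term in the fit, the run had 5016 of 21619 genes past the threshold. Over the 1000 most variable genes, the first principal component (54.9% of the variance) put the first run between -30.9 and -9.15 and the second between 5.54 and 30.8, whatever the genotype. Values within each run are therefore given for the lists and genes on which the results turn. They carry no sex term unless one is named, unlike the main fit. The sex markers Xist and Ddx3y matched the labels in all P3 libraries. WT replicate 4 of P0, labelled female, held 0.181 CPM of Xist, where the other females held 783 to 899.7 CPM. It held 0.155 CPM of the Y-linked Ddx3y, where males held 69.7 to 128 CPM. It entered the fit under its labelled sex, and without it the main fit called 2 genes. The first run compares 1 null library with 3 WT, and the second 2 with 2, balanced for sex.

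Krt9 was lower in each null library than in every WT library, but it was not absent from null paws. In null replicates 1 to 3 Krt9 (ENSMUSG00000051617.4) was at 25.1, 7.73 and 11.5 CPM (read counts normalised to the size of each library, with TMM scaling). In WT replicates 1 to 5 it was at 32.9, 83, 39.8, 74 and 39.8 CPM. The groups did not overlap, and null replicate 1 lay nearest to WT. The log2 fold change, null against WT, was -1.86 (SE 0.49, edgeR's adjusted p = 0.694), which did not pass the threshold of 0.05. An exact two-sided permutation test of log2(CPM + 1) over the 8 libraries gave p = 0.0179, the smallest that the 56 splits allow, for this gene alone. DESeq2 called Krt9 at the same size (adjusted p = 0.0124). The difference was -3.08 in the first run and -0.98 in the second, and -2.54 without null replicate 1.

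The gene that rose was Krt19, a small type I keratin found in simple epithelia and in the hair follicle bulge (ENSMUSG00000020911.15). Krt19 was at 48.9, 68.1 and 92.1 CPM in null replicates 1 to 3. It was at 1.79, 1.95, 0.888, 0.963 and 0.864 CPM in WT replicates 1 to 5. The lowest null library thus lay far above the highest WT library. The fold was 51.1 (log2 5.68, SE 0.34, edgeR's adjusted p = 9.19e-06), and Krt19 was the 1 gene of 21619 called (0.00463%). EdgeR called none lower (0%), with 447 genes lower at an unadjusted p under 0.05, and DESeq2 called 3 lower (0.0139%). The Krt19 difference was 5.71 in the first run and 5.72 in the second. Neither run alone passed (adjusted p = 1 and 0.101). The P3 difference minus that of P0 was -1.09 for Krt19 (edgeR's adjusted p = 0.644).

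The other simple epithelial keratins had values near those of WT. Krt7 was at 63.4, 57.9 and 87.3 CPM in null and 42.1 to 69.2 CPM in WT paws, with overlap. Krt8 lay between 7.40 and 9.88 CPM in null and between 5.11 and 12.2 CPM in WT paws. Krt18 and Krt20 were at or under 6.13 CPM in all 8 libraries, and neither passed. Of 22 type I keratin region genes tested, Krt9 and Krt19 included, 3 were higher and 2 lower at an unadjusted p under 0.05. Over all genes tested, 4.6% were higher and 2.07% lower at that p. The median log2 fold change of the 22 was 0.18, against -0.01 over all genes tested. Within the first and second run their median was -0.01 and 0.09, and 10 of the 22 had the same sign in both.

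With the column run as a term, 7 genes passed (0.0324% of those tested), which were Krt19 and the 6 below, 5 of them higher (0.0278% with Krt19) and 1 lower, each at edgeR's adjusted p = 0.0452. Tmem79, a membrane protein of the lamellar granule pathway, was at 26.3, 16.4 and 21.9 CPM in null paws and at 14.5, 13.3, 14.3, 9.86 and 9.63 CPM in WT paws. All null libraries lay above all WT libraries, with log2 1.02 (SE 0.17) with the run term. Within the runs Tmem79 differed by 0.40 and 1.01.

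Hspa1a, an inducible Hsp70 chaperone, was at 34.2, 22.6 and 29.3 CPM in null paws and at 18.9, 17.6, 20.5, 14.6 and 17.0 CPM in WT paws. These groups did not overlap either, and null replicate 2, of the first run, was the lowest of the 3. The log2 fold change with the run term was 0.78 (SE 0.12), with 0.37 in the first run and 0.83 in the second. Spp1, the secreted matrix phosphoprotein osteopontin, was the gene on the lower side. It was at 775, 1069.6 and 886 CPM in null paws and at 1606, 1203, 1199, 1616 and 1431 CPM in WT paws, without overlap, and had log2 -0.75 (SE 0.12). Within the runs Spp1 differed by -0.32 and -0.86.

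The groups overlapped for the other three genes. Plekhn1 was at 138, 76.0 and 116 CPM against 53.8 to 83.8 CPM in WT paws, and had log2 0.63 (SE 0.10) with the run term. Camsap3, which caps the minus ends of microtubules in epithelial cells, was at 42.2, 35.3 and 32.1 CPM against 18.6 to 32.3 CPM, with log2 0.68 (SE 0.11). Ppp1r13l, the p53-binding protein iASPP, was at 69.9, 67.8 and 51.1 CPM against 35.2 to 63.3 CPM, with log2 0.54 (SE 0.09). For Ppp1r13l the WT libraries of the second run, at 47.5 and 35.2 CPM, were the lowest of their group. The differences in the first and second run were 0.35 and 0.70 for Plekhn1, 0.30 and 0.72 for Camsap3, and 0.23 and 0.56 for Ppp1r13l. With this term, leaving out any 1 of the 7 P3 libraries other than null replicate 2 left 1 gene called. Leaving out null replicate 2 gave 47, and leaving out WT replicate 4 of P0 gave 55.

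**Figure D1:**
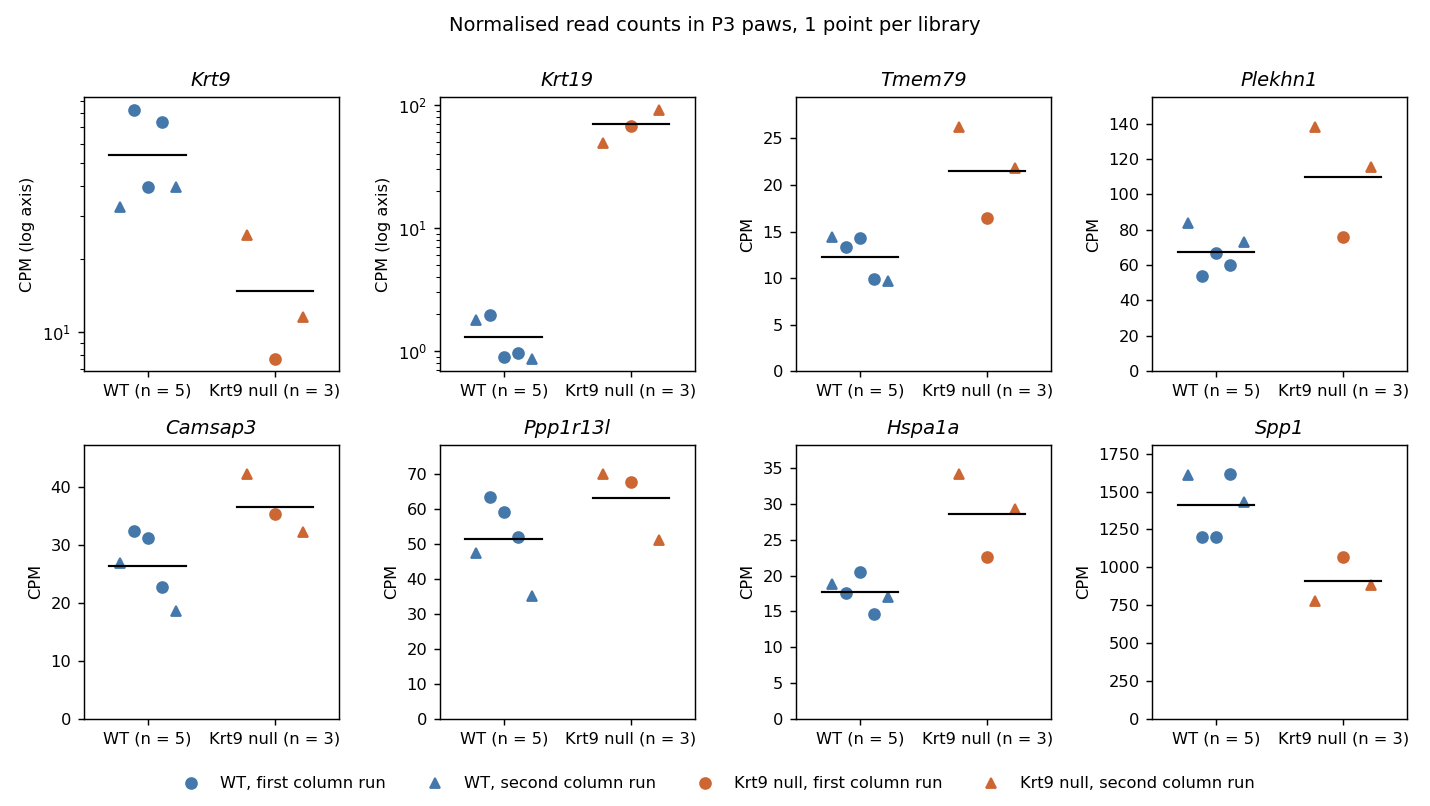
Normalised read counts (CPM, TMM-scaled) of Krt9, Krt19 and the other 6 genes called with the column run as a term, by genotype, with 1 point per P3 library and a bar at the group mean. Circles are the first column run and triangles the second, and the axis is logarithmic for Krt9 and Krt19. Krt19 is at 48.9 to 92.1 CPM in null and at 0.864 to 1.95 CPM in WT libraries, while Plekhn1, Camsap3 and Ppp1r13l overlap between the groups.

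Hspa1a and Hspa1b are near-identical neighbouring genes for the same chaperone, so reads can be split between them in counting and their values are uncertain as separate genes. Hspa1b was at 134, 73.2 and 133 CPM in null paws and between 60.6 and 77.7 CPM in WT paws, where null replicate 2 lay inside the WT range. The 250 bases upstream of their start sites (RefSeq, GRCm38.p6, minus strand, chr17:34972157-34972406 and chr17:34959239-34959488) are shown because both carry the same letters of a heat shock element, the binding sequence of heat shock factors. The search was for GAANNTTC on both strands, its match GAAGATTC is in capitals, and it begins 104 bases before the start site in each.
Hspa1a: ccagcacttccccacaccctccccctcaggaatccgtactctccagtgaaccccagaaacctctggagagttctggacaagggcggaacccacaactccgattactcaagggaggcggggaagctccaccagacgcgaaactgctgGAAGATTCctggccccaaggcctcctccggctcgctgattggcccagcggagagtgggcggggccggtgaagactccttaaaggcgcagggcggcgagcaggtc
Hspa1b: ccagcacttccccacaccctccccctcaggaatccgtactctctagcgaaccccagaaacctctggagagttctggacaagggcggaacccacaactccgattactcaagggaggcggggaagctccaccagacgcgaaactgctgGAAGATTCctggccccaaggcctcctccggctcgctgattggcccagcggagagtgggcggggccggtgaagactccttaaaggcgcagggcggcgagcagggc
The 2 windows differ at 3 of 250 positions. The motif was in 6.69% of 32851 promoter windows of this length. Counted by gene, in any window of the gene, it was in 6.18% of 13814 genes tested. It was in 6 of 20 genes with a window of the heat shock chaperone list. Among genes called higher in the fit of P3 libraries with the run term, given below, it was in 4 of 72 with a window (5.56%). A match is a description of the letters and not a bound site.

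Of the 27 heat shock chaperone genes, 3 were higher and 0 lower at an unadjusted p under 0.05 (Hspa1a, Hspa1b and Hspb1), against 4.6% higher and 2.07% lower over all genes tested. Hspb1, the small chaperone Hsp27 of differentiating keratinocytes, was at 316, 213 and 293 CPM in null paws and at 215, 177, 199, 161 and 161 CPM in WT paws. Null replicate 2 and WT replicate 1 crossed by little there. The list's median was 0.09, with -0.01 in the first run and 0.12 in the second.

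Across the transcriptome the genotype differences of the 2 runs were nearly uncorrelated. Over 12446 genes with a mean of at least 5 CPM, the differences of mean log2(CPM + 1) in the 2 runs had a Pearson correlation of -0.054 and a Spearman correlation of 0.073, and 53.6% of genes had the same sign. These differences carry no sex term, and the first run sets 1 female null library against 2 male and 1 female WT libraries. Krt19 (higher) and Krt9 (lower) were the only genes past 1 in the same direction in both runs, where 45 genes were past 1 on the higher side and 11 on the lower side in the first run, and 70 and 76 in the second. Past 0.5, 17 genes had the same direction in both. The 11 higher ones were Krt19, Lor, Sprr2b, Plcxd1, Aqp9, the hair and nail genes Krt36, Krt84 and Krtap13, and 2310057N15Rik, Gm10228 and Gm5965. The 6 lower ones were Krt9, Isg15, Slfn4, Oscar, Hoxd10 and Csrnp3. All 17 were named after their values were seen.

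**Figure D2:**
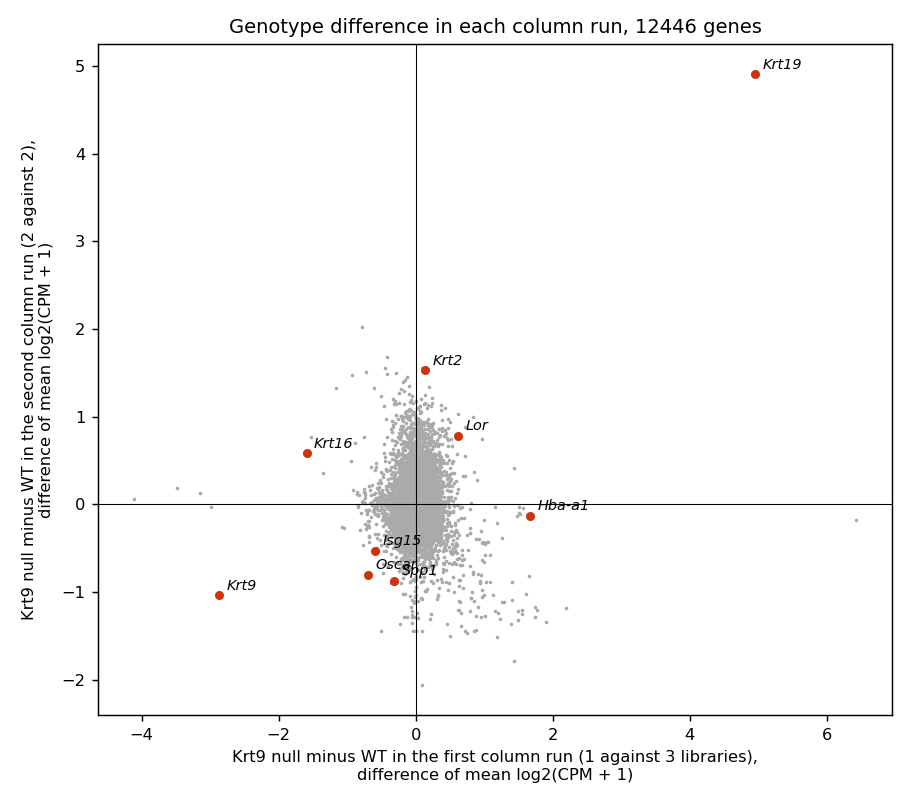
Genotype difference (null minus WT, difference of mean log2(CPM + 1)) of each of 12446 genes in the first column run (horizontal, 1 against 3 libraries) and in the second (vertical, 2 against 2), with 1 grey point per gene and named genes in red. Krt19 and Krt9 lie past 1 in the same direction on both axes. Over all 12446 genes, Krt19 and Krt9 included, the Pearson correlation is -0.054 and the Spearman correlation 0.073.

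Genes of the cornified envelope lay higher in null paws in the second run and near WT in the first. At an unadjusted p under 0.05, 20 of 27 were higher and 0 lower, against 6.67% of all genes tested in either direction, and none was called. Their median log2 fold change was 0.89, with 0.12 in the first run and 0.82 in the second. Their summed level was 30829 and 28519 CPM in null replicates 1 and 3, and 13699 CPM in null replicate 2. WT replicates 1 and 5, of the same run as the high null libraries, held 19078 and 13946 CPM, and the other WT libraries 10250 to 12334 CPM. The 20 tested genes of the late cornified envelope family, small proteins added late to the envelope, had a median of 0.85 (0.11 and 0.86 in the runs), with 15 higher and 0 lower at that p.

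Lor, which encodes loricrin, the main protein of the envelope, was the 1 member of that list among the 17 genes past 0.5 in both runs. Lor was at 8933, 5965 and 5894 CPM in null paws. It was at 5058, 3728, 4401, 3569 and 3533 CPM in WT paws. The groups did not overlap, and the fitted differences were 0.62 in the first run and 0.80 in the second. The log2 fold change was 0.89 (SE 0.18, edgeR's adjusted p = 0.422), and DESeq2 called it (adjusted p = 0.00831). Evpl, the crosslinker envoplakin, was the other list member without overlap (280.0, 189 and 247 against 131 to 184 CPM, log2 0.74, SE 0.15). Over all genes, 280 (1.3%) lay higher and 274 (1.27%) lower without overlap.

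The 250 bases upstream of Lor (RefSeq, GRCm38.p6, minus strand, chr3:92083143-92083392) are shown because they carry the letters of an AP-1 site, the binding sequence of Jun and Fos factors that act in keratinocyte differentiation. The search was for TGANTCA on both strands, its match TGAGTCA is in capitals, and it begins 48 bases before the start site.
Lor: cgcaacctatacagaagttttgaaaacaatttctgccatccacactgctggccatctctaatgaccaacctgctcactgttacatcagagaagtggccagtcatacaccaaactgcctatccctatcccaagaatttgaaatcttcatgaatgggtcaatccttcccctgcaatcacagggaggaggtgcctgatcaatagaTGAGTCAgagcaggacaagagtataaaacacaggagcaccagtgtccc
This motif was in 6.75% of all promoter windows of this length. Counted by gene, it was in 6.41% of 13814 genes tested and in 11 of 23 genes with a window of the cornified envelope list. Among genes called higher in the fit of P3 libraries with the run term, given below, it was in 9 of 72 with a window (12.5%). The Lor window is marked for the AP-1 letters only, and those of Hspa1a and Hspa1b for the heat shock letters only. The list of Jun, Fos and other immediate early genes had a median of 0.34 over 22 members (0.13 and 0.30 in the runs). The same sign in both runs was found for 12 of the 22. At an unadjusted p under 0.05, 2 were higher and 0 lower. Those higher were Egr3 and Btg2, which are not Jun or Fos genes. All genes tested had 4.6% higher and 2.07% lower at that p.

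A fit of the P3 libraries alone with the column run as a term called 97 of 19329 genes (0.502%), 96 higher (0.497%) and 1 lower (0.00517%). All 97 had the same sign in both runs, whose libraries are those of this fit, with a median log2 fold change of 0.60 in that fit, 0.24 in the first run and 0.66 in the second. Called envelope genes were Lor, Evpl, Flg and Flg2, which encode filaggrins, and Tgm1, the crosslinking transglutaminase. Flg was at 2703, 1169.9 and 2091 CPM in null paws and between 864 and 1523 CPM in WT paws. Lower was Gpx8, an endoplasmic reticulum peroxidase, at 84.1, 75.3 and 89.5 CPM against 81.5 to 120.5 CPM (log2 -0.35). The count depended on single libraries. It was 0 without WT replicate 5, 1 without null replicate 1, 23 without WT replicate 1, 46 without null replicate 3 and 632 without null replicate 2.

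The genes of cell junctions lay on the same side. Of 13 desmosome genes 5 were higher and 0 lower at an unadjusted p under 0.05 (4.6% and 2.07% over all genes tested). Their median was 0.61 (0.00 and 0.55 in the runs). The fit of P3 libraries with the run term called Dsp, Jup and Pkp3, which encode the plaque proteins desmoplakin, plakoglobin and plakophilin 3. Dsp was at 2169, 876 and 1659.6 CPM in null and between 683 and 1398 CPM in WT paws, so null replicate 2 lay within WT. Of 18 tight and adherens junction genes 7 were higher and 0 lower, with a median of 0.46 (0.21 and 0.32), and 14 had the same sign in both runs. The same fit called Cgn, Cldn4, Cldn23, Nectin4 and Tjp3, the claudins and scaffold proteins of the tight junction and an adherens junction nectin. Tjp3 was at 32.9, 14 and 27.9 CPM in null paws and between 9.84 and 19.5 CPM in WT paws. The 15 hemidesmosome and basement membrane genes, at the other face of the epidermis, had a median of 0.00 (0.04 and 0.24 in the runs). At an unadjusted p under 0.05, 0 were higher and 1 lower, which was Itgb1 (log2 -0.24, SE 0.11).

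Barrier lipid genes followed the envelope genes. Of 24 members 17 were higher and 0 lower at an unadjusted p under 0.05 (4.6% and 2.07% over all genes tested). Their median was 0.85, with 0.01 in the first run and 0.74 in the second. The fit of P3 libraries with the run term called Aloxe3, a lipoxygenase of the barrier, with Cyp4f39, Nipal4 and Slc27a4. Aloxe3 was at 113, 48.4 and 88.5 CPM in null paws and at 58.4, 37.3, 49.3, 36.1 and 46.4 CPM in WT paws. Null replicate 2 was again the null library inside the WT range. The 17 proteases and inhibitors of desquamation had 8 higher and 0 lower, with a median of 0.76 (0.01 and 0.62).

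Of 23 cholesterol synthesis genes, 17 were higher and 0 lower at an unadjusted p under 0.05 (4.6% and 2.07% over all genes tested). The same sign in both runs was found for 20 of the 23. The median was 0.49, with 0.17 in the first run and 0.52 in the second. Their summed level was 2084.5, 1476 and 1731.5 CPM in null paws and 1173 to 1433 CPM in WT paws, without overlap. Lss, the lanosterol synthase, was at 69.2, 47.1 and 45.2 CPM against 29.3 to 44.2 CPM. Mvd, of the mevalonate pathway, was at 43.1, 37.3 and 37.3 CPM against 26.6 to 30.2 CPM, also without overlap. The fit of P3 libraries with the run term called members that included these 2, Hmgcs1 and Sqle, and the main fit called none. Fatty acid synthesis genes had a median of 0.13, with 4 of 16 higher and 1 lower.

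**Figure D3:**
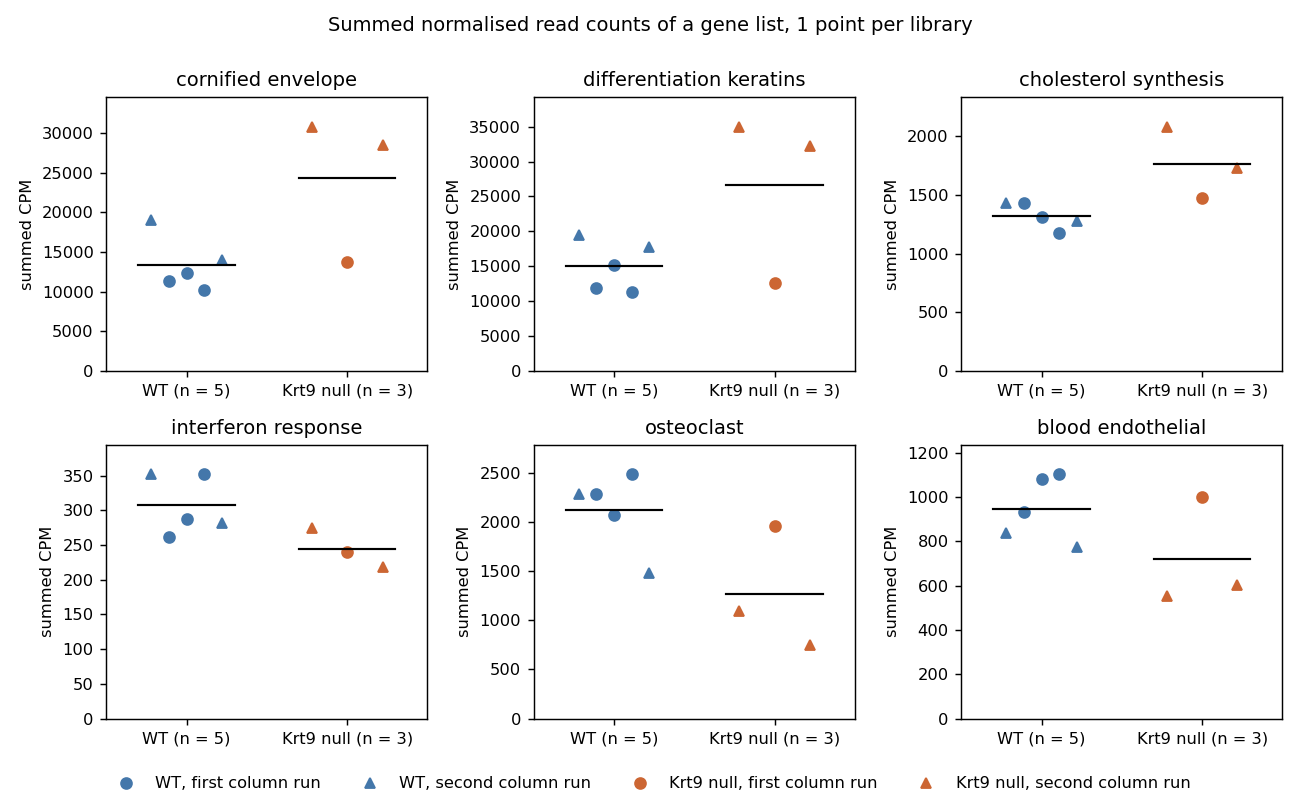
Summed normalised read counts (CPM) of 6 gene lists by genotype, with 1 point per P3 library and a bar at the group mean. Circles are the first column run and triangles the second. The cornified envelope and differentiation keratin sums are highest in the 2 null libraries of the second run, while null replicate 2 lies within or near WT, and the cholesterol synthesis sums do not overlap between the genotypes.

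Markers of the other tissues of the paw also differed in level between these libraries. Of 16 general epithelial markers, 15 lay higher in null paws, 10 of them at an unadjusted p under 0.05. Over all genes tested, 4.6% were higher and 2.07% lower at that p. The summed level of these markers was 952 to 1601 CPM in null and 760.3 to 1215 CPM in WT paws. Of 20 fibroblast matrix genes 19 lay lower, 1 of them at that p, with a median of -0.23. Muscle genes lay lower in 15 of 17 mature fast muscle genes (median -0.31, -0.05 and -0.14 in the runs). Lower too were 13 of 14 developmental and slow muscle genes (-0.25, -0.14 and -0.02 in the runs). Myogenic regulators had 14 of 15 lower (-0.49, -0.10 and -0.12 in the runs). The medians were -0.35 for pericytes and smooth muscle (0.01 and -0.29 in the runs) and -0.25 for tendon (-0.01 and -0.35). Chondrocyte genes had 12 of 20 higher and a median of 0.14 with all libraries. Within the runs the chondrocyte median was -0.13 in the first and -0.42 in the second. At most 1 member of each of these lists was lower at an unadjusted p under 0.05, and none was called. The summed level of 20 bone cell genes was 11953, 33312 and 8776 CPM in null replicates 1 to 3, and 13619 to 41553 CPM in WT paws. The libraries with the highest envelope sums, null replicates 1 and 3, were thus those with the lowest bone sums. In whole paws, fewer cells of a type and less RNA per cell cannot be told apart, and the part of tissue makeup in the epidermal differences was not tested. Without null replicate 2, the fit of all other libraries called 200 of 21708 genes (0.921%), 159 higher (0.732%) and 41 lower (0.189%), and these included 10 envelope genes, 6 barrier lipid genes and 2 differentiation keratins on the higher side.

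Of the listed keratins, the main fit called Krt19 alone. Of 9 differentiation keratins, all had a positive log2 fold change and 6 an unadjusted p under 0.05, where 4.6% of all genes tested were higher. Their median was 0.93 (0.07 and 0.83 in the runs). Krt1, the partner of Krt9, was at 18256, 6764 and 17174 CPM in null paws and at 9886, 6068, 8038, 6062 and 9106 CPM in WT paws. Null replicates 1 and 3 lay above all WT libraries and null replicate 2 within them. Krt10, the usual partner of Krt1 in the epidermis of the body, was at 15269, 5135 and 14135 CPM and had the same order. Krt2, of the upper spinous and granular layers, was at 407, 129 and 169.8 CPM against 65.9 to 156 CPM, and its difference was 0.12 in the first run and 1.61 in the second.

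The basal keratins Krt5 and Krt14 had log2 fold changes of 0.22 and 0.04, with overlapping libraries. Krt15 was at 607, 485 and 615 CPM in null and 545 to 1019 CPM in WT paws (log2 -0.50, unadjusted p = 0.0146), lower in both runs. The stress keratin list held Krt6a, Krt6b, Krt16 and Krt17, which keratinocytes make in wounds and calluses. It also held Krt75, which is in the hair follicle list too. The median of these 5 genes was 0.51 (-0.10 and 0.59 in the runs), with 4 of them above 0. That median is the value of Krt75 itself, which was 0.82 in the first run and -0.37 in the second. No member had an unadjusted p under 0.05. Krt16 was at 92.7, 12.4 and 113 CPM in null and at 59.3, 18.1, 57.3, 58.3 and 78.3 CPM in WT paws. The difference of Krt16 was -1.83 in the first run and 0.59 in the second. Krt6b had the same kind of spread, with 26.9, 3.72 and 62.6 CPM against 3.39 to 13.7 CPM. Hair and nail keratins had a median of 0.75 over 15 genes, all above 0 (0.40 and 0.23 in the runs). Only 5 of the 15 had the same sign in both runs. Their summed level was 728 to 1755 CPM in null and 155 to 1525 CPM in WT paws, with overlap. Inner root sheath keratins had a median of 0.16 over 8 genes, and no member of either list passed. The inner root sheath median was 0.63 in the first run and -0.65 in the second, and the summed level of these 8 genes ran from 199 to 1315.5 CPM in null and from 330.04 to 1790.4 CPM in WT paws.

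Regulator, signalling and stress lists had smaller medians. Their counts stand beside 4.6% higher and 2.07% lower over all genes tested at an unadjusted p under 0.05. Epidermal transcription factors had 11 of 23 higher and 0 lower at an unadjusted p under 0.05 (median 0.43, 0.10 and 0.38 in the runs), with Grhl3, a regulator of barrier formation, at 65.4, 25.9 and 62.5 CPM against 24.4 to 42.0 CPM. Interleukin 1 family and alarmin genes had 5 of 25 higher and 0 lower, with a median of 0.25 that was -0.22 in the first run and 0.18 in the second. Il1a, released by damaged keratinocytes, was at 20.2, 6.16 and 26.6 CPM in null and 5.38 to 13.0 CPM in WT paws. Nrf2 antioxidant targets had 5 of 24 higher (median 0.20) and EGF receptor and ligand genes 2 of 15 (median 0.26), none lower. Medians between -0.17 and 0.03 were found for YAP and mechanosensitive genes (24 members), glucocorticoid responsive genes, the unfolded protein response, p53 targets, the Notch pathway, Wnt and BMP targets and the cell cycle. All 30 cell cycle genes lay below 0, with none at an unadjusted p under 0.05, a median of -0.17 (-0.14 and -0.09 in the runs) and a summed level of 2012 to 2188 CPM in null and 2127 to 2641 CPM in WT paws. The 22 genes of volar skin and sweat glands, the site-specific list, had a median of 0.02, with 0 higher and 1 lower at an unadjusted p under 0.05. That gene was Dkk1, a Wnt inhibitor of palm and sole fibroblasts, at 7.14, 8.76 and 8.18 CPM in null paws and 11.2 to 13.0 CPM in WT paws, without overlap (log2 -0.58, SE 0.22, edgeR's adjusted p = 0.704).

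**Figure D4:**
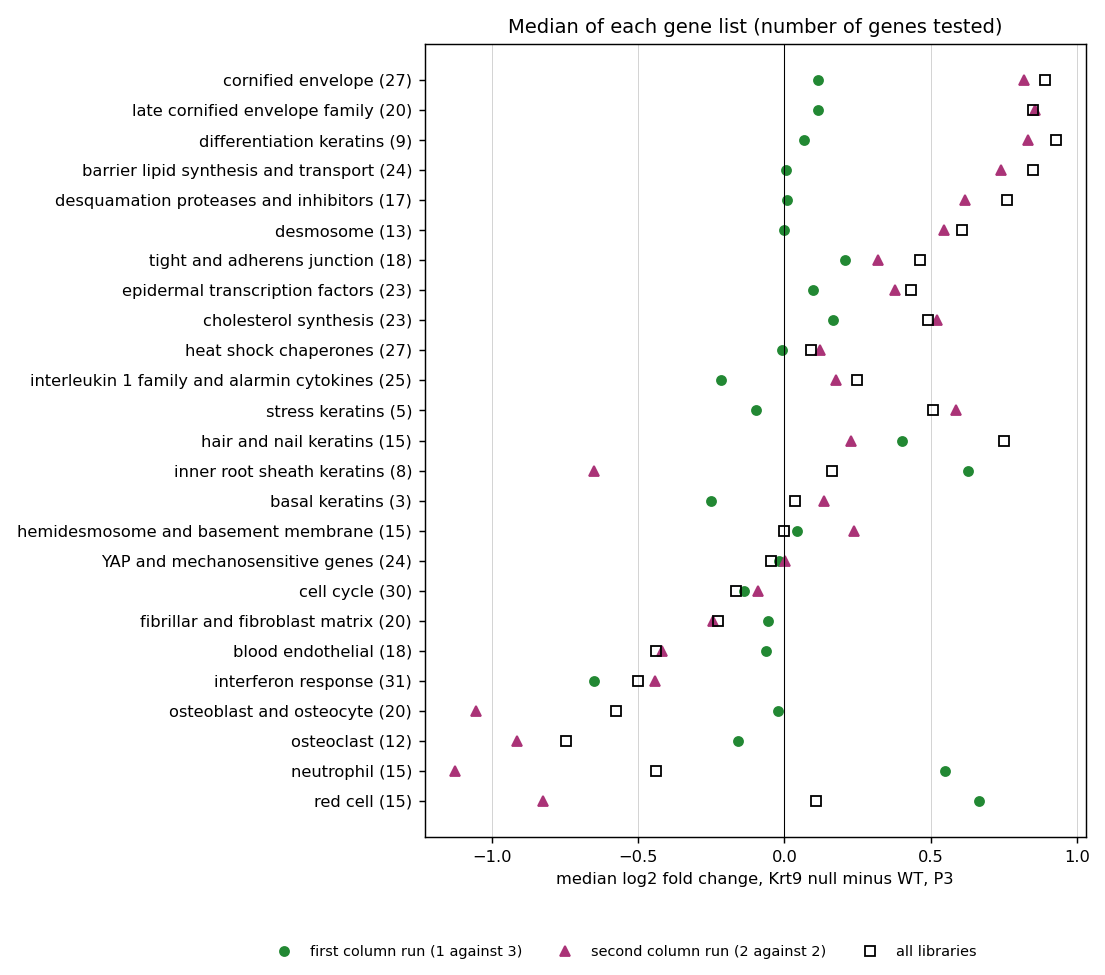
Median log2 fold change (null against WT, P3) of 25 gene lists from all libraries (open squares), the first column run (circles) and the second (triangles), with the number of genes tested in brackets. Envelope, barrier lipid and differentiation keratin medians lie between 0.74 and 0.93 with all libraries or in the second run and near 0 in the first, while the interferon median is below 0 in both.

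On the lower side, interferon response genes had all 31 tested members below 0, 27 of them in both runs. At an unadjusted p under 0.05 there were 8, where 2.07% of all genes tested were lower. The median was -0.50, with -0.65 in the first run and -0.44 in the second, and none was called. Their summed level was 275, 239.8 and 219 CPM in null paws and 262 to 352 CPM in WT paws, with null replicate 1 inside the WT range. Oas2, which senses viral RNA, was at 2.51, 2.66 and 2.28 CPM against 3.30 to 5.48 CPM. Bst2, which tethers virions, was at 17.2, 15.6 and 14.5 CPM against 16.3 to 29.4 CPM, where WT replicate 2 was the lowest WT library. Of the 31 members, Oas2 alone had no overlap of the libraries, where 1.27% of all genes tested lay lower without overlap. The interferon-induced GTPase Irgm2, which that list does not hold and which was named by a rule that asks for no overlap, was at 6.63, 7.79 and 8.03 CPM in null and at 9.88 to 13.6 CPM in WT paws (log2 -0.75, SE 0.20, edgeR's adjusted p = 0.694).

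Osteoclast genes were below 0 in all 12 tested members, 5 of them at an unadjusted p under 0.05, where 2.07% of all genes tested were lower. The osteoclast median was -0.75 (-0.16 and -0.92 in the runs). Ctsk, the collagenase of osteoclasts, was at 429, 607 and 327 CPM in null paws and at 777, 693, 681, 886 and 638 CPM in WT paws, without overlap, and differed by -0.31 in the first run and -0.89 in the second. Dcstamp, needed for osteoclast fusion, was at 4.57, 7.40 and 3.75 CPM against 7.84 to 13.7 CPM, also without overlap. Their summed level was 745 to 1960.4 CPM in null and 1482 to 2490.3 CPM in WT paws. Osteoblast and osteocyte genes, Spp1 among them, had 4 of 20 lower and 0 higher at that p, with a median of -0.58 that was -0.02 in the first run and -1.05 in the second. Blood endothelial genes were below 0 in all 18 members, 5 of them at that p (median -0.44, -0.06 and -0.42). Emcn, an endothelial sialomucin, was at 14.5, 20.1 and 16.2 CPM against 21.7 to 26.1 CPM, without overlap (-0.20 and -0.76 in the runs). Each of these lists was lowest in null replicates 1 and 3, the libraries with the highest epidermal sums.

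Markers of blood cells were not called in either direction. All 15 neutrophil genes lay lower in the main fit, yet the median was 0.55 in the first run and -1.13 in the second, and none passed. The red cell median was 0.11, with 0.66 and -0.82 in the runs, and the summed level ran from 567 to 2687 CPM in WT paws alone. B lymphocyte genes lay lower in 10 of 11 members, with a median of -0.61 (-0.30 and -1.03 in the runs), but the 1 member at an unadjusted p under 0.05 was higher, and the summed levels overlapped at 32.4 to 64.9 CPM in null and 35.9 to 87.9 CPM in WT paws. Macrophage genes had a median of -0.04 (0.02 and 0.02 in the runs) and lymphatic endothelial genes -0.05 (-0.09 and -0.01). The Schwann cell median was -0.04, with 0.26 in the first run and -0.20 in the second. Ribosomal protein genes had a median of 0.09 and mitochondrially encoded genes -0.13, with none at an unadjusted p under 0.05 in either.

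Among all genes tested, in the lists or not, a rule took the largest differences with an unadjusted p under 0.05, no overlap of the libraries, a mean of 5 CPM or more on the higher side and the same sign in both runs. It left 71 higher and 61 lower genes, of which 12 each way are named. Besides Krt19, Tmem79, Lor, Hspa1a and Evpl, the higher ones were Capn9, Plcxd1, Nccrp1, Lnx1, Ltb4r2, Tmem102 and Crybg2, with log2 fold changes between 0.67 and 1.16. Nccrp1, an F-box-associated protein of squamous epithelia, was at 169.9, 93.9 and 107 CPM in null paws and at 90.0, 75.2, 79.5, 57.0 and 43.3 CPM in WT paws. Plcxd1 was at 24.0, 14 and 22.4 CPM against 8.03 to 12.6 CPM, and Ltb4r2, a leukotriene receptor, at 7.5, 7.19 and 7.68 CPM against 3.95 to 6.59 CPM. DESeq2 called Plcxd1 (adjusted p = 0.00950), Nccrp1 (0.00451), Lnx1 (0.0497), Tmem102 (0.0344) and Crybg2 (0.0180) among 26 genes (0.12%), 23 of them higher (0.106%).

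Besides Krt9, Spp1, Ctsk, Dcstamp, Irgm2 and Gbp3, the lower ones were Zmat1, Ostn, Cyp4v3, Tnfrsf13b, Olfr558 and Pyroxd2, with log2 fold changes between -1.03 and -0.64. Zmat1 was at 1.98, 4.17 and 4.84 CPM in null paws and 5.36 to 6.51 CPM in WT paws. Ostn, a secreted peptide of bone and muscle, was at 4.24, 6.92 and 7.51 CPM against 7.98 to 9.76 CPM. Cyp4v3, a fatty acid hydroxylase, was at 5.99, 6.43 and 4.42 CPM against 8.46 to 9.46 CPM, and DESeq2 called it with Krt9 and Spp1 (adjusted p = 0.0497). By edgeR's main fit none of these genes other than Krt19 passed.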

How the data were processed

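The deposited table holds raw read counts per gene, used as the authors made them. Per the submitters' processing notes the tools were STAR 2.7.10a, limma, edgeR and featureCounts, with the build GRCm39. Annotation, strand setting and filters are not stated in the labels. Of 56691 gene IDs, 52073 matched a symbol in the reference annotation, and the other 4618 held 0.623% of counts.

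Genes kept by filterByExpr (21619) received TMM scaling and were fitted by the robust quasi-likelihood test of edgeR 4.0.16 in R 4.3.3, over the 4 groups of genotype and day (14 libraries) with labelled sex as a covariate and 9 residual degrees of freedom. Benjamini-Hochberg adjustment covered all genes tested, with calls at an adjusted p under 0.05. Log2 fold changes are fitted values, and values within a run are fits of that run's P3 libraries without a sex term. A value from all libraries, adjusted for sex, can thus lie outside the values of both runs. The fit was also run on simulated counts with the same spread for every gene and no run, sex or day effect. That simulation cannot show how the fit behaves where such effects are present. Named genes were Krt9, genes called in the main or run-term fit, 12 each way by the rule in the text, all listed keratins, and up to 4 members of each list by smallest p. The 61 lists and the genes were chosen with earlier results of these data known. Genes named outside this rule are called so in the text or were called in the fit of P3 libraries with the run term.

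Alternatives were other scaling and filters, DESeq2 1.42.0, limma 3.58.1 voom, no sex term, a run term, P3 libraries only, each run alone, the litter 2 males summed, and leaving out each P3 library. A run term within each day, the second run with a sex term, and leave-outs with P3 libraries and the run term were added after seeing the data. Promoters were read from RefSeq (GRCm38.p6), whose build differs from that of the counts, so it served for upstream letters only. Python 3.11.15 was used for the rest.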

Additional observations from a re-analysis of the deposited data

Results flagged for a closer look

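Of 186 named genes, 4 had a WT library on P3 whose gap to the nearest of the others was large against the range of the 5 libraries, and chance gives such a gap in a share of 0.05 of groups. These were Ltb4r2 in WT replicate 2 (6.59 CPM, the highest of its group), Tgm3 in WT replicate 4 (85.5 CPM, the lowest), Krt16 in WT replicate 2 (18.1 CPM, the lowest) and Lipe in WT replicate 5 (10.5 CPM, the lowest).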

How the results depend on the processing

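The count of called genes was 1 with other scaling, a filter of 1 CPM in 3 libraries, limma voom, no sex term, P3 libraries only, or the litter 2 males summed. It was 631 with no filter, 26 by DESeq2, 7 with the run term, 97 with P3 libraries and the run term, 0 in the first run, 0 in the second, and 2 without P0 WT replicate 4. Leaving out 1 P3 library gave 1 to 200 genes (200 without null replicate 2), 1 to 47 with the run term, and 0 to 632 with P3 libraries and the run term (83 without WT replicate 2, 105 without 3, 91 without 4, 23 without 1, 0 without 5, 46 without null replicate 3, 1 without null replicate 1 and 632 without null replicate 2). With alternatives chosen after seeing the data, the count was 39 with the run term within each day, 55 with the run term without P0 WT replicate 4, and 1743 in the second run with a sex term, which leaves 1 residual degree of freedom. The causes were not tested.

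Krt9 was past the threshold at -1.88 with no filter (adjusted p = 2.84e-19) and at -1.86 by DESeq2. It was -3.08 in the first run, -0.98 in the second and -1.05 there with a sex term, and leaving out libraries gave -2.54 to -1.57 in the main fit, -2.53 to -1.26 with the run term, and -2.47 to -0.99 with P3 libraries and the run term. Krt19 was not past it at 5.71 in the first run, 5.72 in the second, 5.64 there with a sex term, or in 5 leave-outs with P3 libraries and the run term (5.28, 5.53, 5.62, 5.71 and 5.87). In the second run with a sex term, Krt33a (-0.44), Krt40 (-1.13) and Col2a1 (-0.26) had the other sign and passed. Of 186 named genes, 121 kept their sign under every alternative, 37 had the other sign in the first run alone and 21 in the second. Of 61 list medians, 26 kept their sign.

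No paired analysis was possible because no litter number holds both genotypes on P3. The first run has 1 null library, so its fit assumes that this library varies like the WT ones. Depth limits genes near 0 CPM, such as Mcpt2 (0, 0 and 0.246 CPM in null paws).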
